A study of Mus musculus with 24 samples.

Results

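Liver gene expression was compared between 6 mice that had gone without food for 24 hours and 6 mice that had eaten chow and drunk water with 20% fructose for 24 hours. These 12 samples, of 24 in the series, were chosen by their labels alone, and no measured value entered the choice. All mice were wild-type C57Bl/6J males, 8 weeks old and raised on chow, each liver came from an individual animal, and all were killed at ZT16, which is 16 hours after lights on. The remaining 12 mice ate chow and drank either plain tap water or 20% glucose, 6 in each group. Their values are set beside those with fructose. The fasted mice lacked both chow and fructose, so the absence of food and the absence of the sugar cannot be told apart in the main contrast, and a single time point was sampled.

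A fed liver that receives sugar phosphorylates it, burns part of it in glycolysis and turns the surplus into fatty acids and triglyceride, under insulin and the sugar-sensing factor ChREBP (gene Mlxipl) and the lipid factor SREBP-1c (gene Srebf1). Fructose enters through ketohexokinase, which bypasses the regulated upper steps of glycolysis. In fasting the liver takes up fatty acids from adipose tissue, oxidises them under the nuclear receptor PPARA, exports ketone bodies, and makes glucose from amino acids and glycerol under glucagon and glucocorticoids.

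RNA was labelled with Cy3 and hybridised to Agilent mouse arrays, 1 array per mouse. Levels are given as log2 of the processed spot intensity minus the 75th percentile of the array, so that 0 is that percentile and 1 unit is a doubling. Levels of different genes come from different probes and are not compared with each other. The scanner software called between 33066 and 36274 probes well above background on the fructose arrays and between 33765 and 35380 on the fasted arrays. Arrays correlated across genes at 0.991 to 0.994 within the fructose group, at 0.985 to 0.994 within the fasted group and at 0.970 to 0.981 between the groups. The first principal component of the 12 arrays held 54.8% of the variance and set every fasted array (41.6 to 60.7) apart from every fructose array (-59.3 to -41.8). The second held 9.69% and set fasted mice 2 (-51.5) and 6 (41.2) apart from the other fasted mice. In bulk liver, fewer cells of a type and less RNA per cell cannot be told apart.

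Of 23966 genes tested, 10845 (45.3%) differed between fasted and fructose-fed liver at an adjusted p under 0.05 in limma. In fasted liver 5598 genes (23.4%) were higher and 5247 (21.9%) lower. The counts of every list below are to be read against these shares. A change of at least 2-fold was reached by 1044 higher genes (4.36%) and 950 lower genes (3.96%). These counts use fitted folds, which for a gene at background in 1 group are not exact. The median log2 fold change over all genes was 0.04. The values of the 12 mice did not overlap between the groups in 5649 genes (23.6%), 2875 of them higher and 2774 lower in fasted mice. Without fasted mouse 2 the counts were 5583 higher and 5170 lower, and within slides 1, 2 and 3, each with 2 mice per group, they were 2386, 2130 and 2474 higher and 2127, 2356 and 2087 lower. Among protein-coding genes 51.2% were called, and among 1541 long noncoding RNAs 36.9%. For 11956 of the 13121 genes that were not called, the 95% interval of the difference lay within 2-fold either way.

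**Figure D1:**
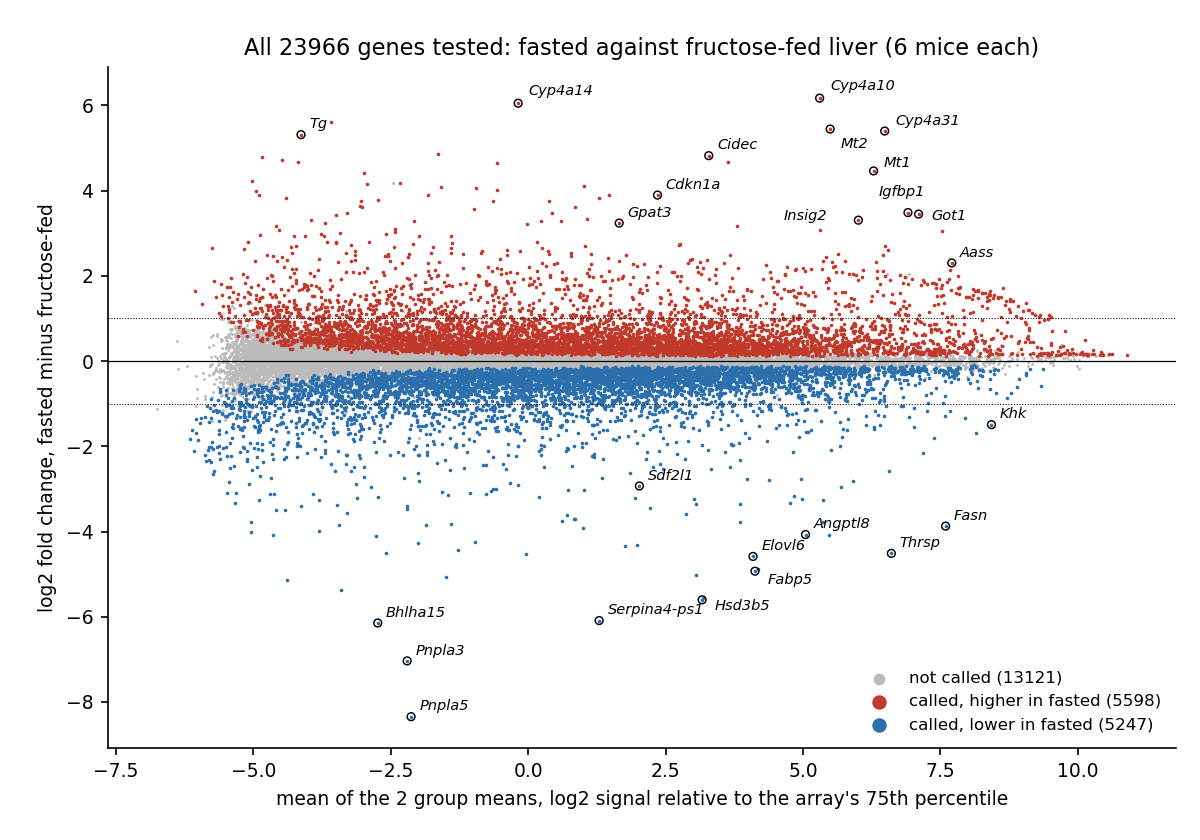
Log2 fold change (fasted minus fructose-fed, y axis) of each of 23966 genes against its mean level in the 2 groups (x axis, log2 signal relative to the array's 75th percentile), with 5598 genes called higher in red, 5247 called lower in blue and the rest in grey. Dotted lines mark 2-fold, and named genes are circled; Cyp4a10 (6.17) and Serpina4-ps1 (-6.09) lie far outside the bulk of the genes, and the points of Tg, Pnpla5 and Bhlha15, above background in no mouse of 1 group, and of Pnpla3, above it in 1 of 6 fasted mice, are fitted values and not measured sizes.

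The fatty acid omega-hydroxylases of the Cyp4a family led the rises. Cyp4a10 lay between 1.06 and 4.39, with a median of 2.00, in the fructose-fed mice and between 8.14 and 8.52, with a median of 8.42, in the fasted mice, a 72.1-fold difference (log2 fold change 6.17 ± 0.42, SE; adjusted p = 5.8e-11). The fasted mice were tightly grouped and the fructose-fed mice spread over more than 3 log2 units. Cyp4a14 was 66.4-fold and Cyp4a31 42.2-fold higher, and since the Cyp4a genes are close copies of each other, probes may read more than 1 of them. Cidec, which coats and fuses lipid droplets, rose from a median of 0.83 (0.11 to 2.05) to 6.09 (3.38 to 6.54), 28.3-fold (adjusted p = 3.7e-09). The metal-binding metallothioneins rose in every fasted mouse: Mt2 from 2.45 (1.98 to 3.84) to 8.56 (5.82 to 9.80), 43.6-fold, and Mt1 22.1-fold. Their spread among fasted mice was wide, and the groups still did not overlap.

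Several of the steepest rises started from genes near or under the background. No fructose array was well above background for thyroglobulin (Tg), the thyroid prohormone, which was at least 13.1-fold higher in fasted mice. The same held for Cend1, a neuronal cell-cycle exit gene, at least 10.2-fold higher, and for the adrenergic receptor gene Adra2a, at least 4.85-fold higher. Myom3, a muscle M-band protein, was 28.9-fold higher with 3 of 6 fructose arrays above background. The noncoding RNA Lncbate1 (18.2-fold), the monocarboxylate carrier Slc16a5 (17.3-fold) and the oestrogen sulfotransferase Sult1e1 (16.8-fold) completed this range. Probes of 1 gene did not always give the same value: for Slc6a21 they gave 0.43 and 4.16. The brightest probe under the name Pip5k1a, a phosphoinositide kinase, rose by 4.66 while another gave -0.30. That brightest probe read 5.51, 8.10, 3.35, 6.69, 8.02 and 4.16 in fasted mice 1 to 6. The Mt2 levels of the same mice were 8.05, 9.78, 5.82, 9.07, 9.80 and 6.79. Which transcript the brightest Pip5k1a probe reads was not tested.

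Among the falls, Pnpla5, a patatin-like lipase, lay between 0.38 and 3.55 in fructose-fed mice and was above background in no fasted mouse, at least 140-fold lower, although its other probe gave -2.99. Its relative Pnpla3, a triglyceride lipase and target of ChREBP and SREBP-1c, had a median of 1.60 with fructose and was above background in 1 of 6 fasted mice. Bhlha15, a transcription factor of secretory cells, was at least 42.9-fold lower.

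Serpina4-ps1 fell 68.1-fold and the steroid dehydrogenase Hsd3b5 48.6-fold, from a median of 5.91 (5.85 to 6.14) to 0.62 (-1.51 to 2.44). Neighbouring protease inhibitor genes fell as well: Serpina9 33.3-fold, with Serpina12 above background in 1 of 6 fasted mice, and the thyroxine carrier Serpina7, on another chromosome, 19.2-fold. Members of the Serpina family are similar in sequence, and cross-hybridisation was not tested. The fatty acid carrier Fabp5 fell 30.5-fold (-4.93 on the log2 scale), and without fructose-fed mouse 4, the lowest of its group at 3.48, the value was -5.55. The nicotinic receptor subunit Chrna4 was at least 9.62-fold lower, the morphogen gene Ihh 21.6-fold lower and Nrep 19.9-fold lower.

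**Figure D2:**
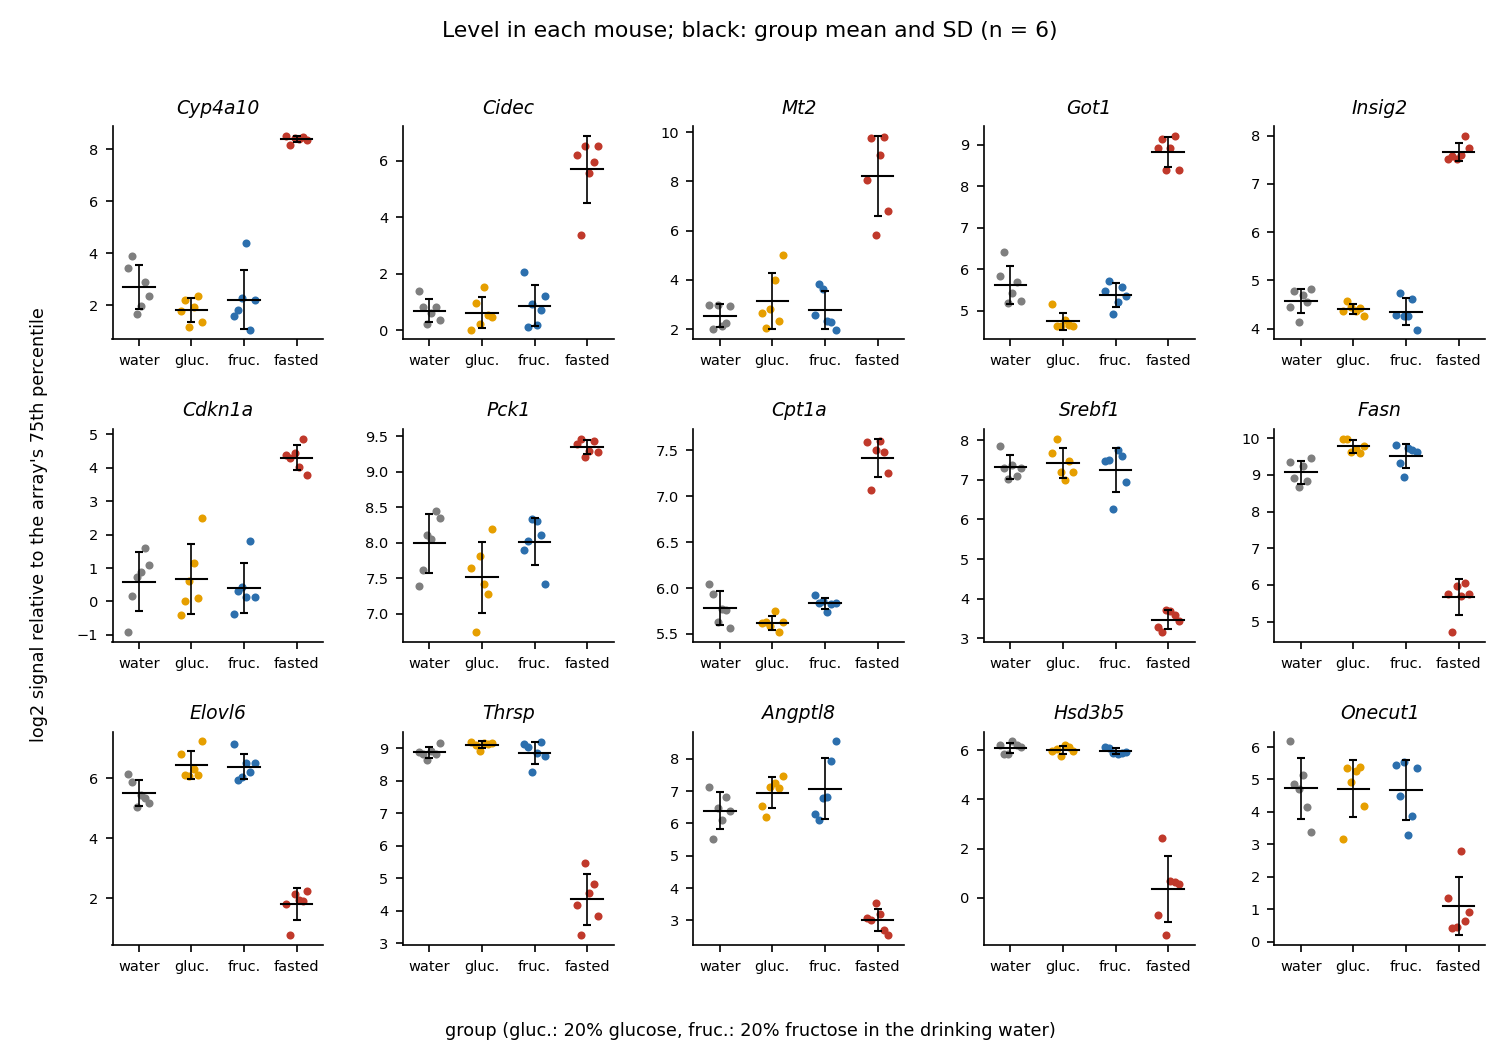
Level of 15 genes in each mouse (y axis, log2 signal relative to the array's 75th percentile) in the 4 groups (x axis), with the group mean and SD (n = 6) in black. In the first 8 genes, from Cyp4a10 to Cpt1a, all fasted mice lie above all fructose-fed mice, and in the other 7, from Srebf1 to Onecut1, below them, with no overlap.

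Genes that handle the sugar itself were lower in fasted liver at the steps specific to fructose and at the controlled steps of glycolysis. Of 10 measured genes of fructose entry and breakdown, 5 fell and 2 rose (median -0.15). Ketohexokinase (Khk), the first enzyme, ran from 9.08 through 9.13 to 9.40 with fructose and from 7.47 through 7.72 to 7.76 in fasting, a 2.81-fold fall (adjusted p = 7.1e-13). Triokinase (Tkfc), a later enzyme, fell 3.98-fold, and the transporter Slc2a2 2.06-fold. Of 14 glycolysis genes, 7 fell and 5 rose. Among the falls were those of pyruvate kinase (Pklr), from 2.63 (2.30 to 3.21) to -1.01 (-1.63 to -0.48), 13.1-fold, and of Pfkfb3 (4.89-fold), which makes the activator of phosphofructokinase. The 5 that rose, among them Pfkfb1 and Aldoa, each did so by 0.64 or less on the log2 scale.

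In the pentose phosphate pathway, the source of NADPH for fat synthesis, 7 of 9 genes fell and 2 rose (median -0.63), with Tkt down 3.45-fold and Pgd 3.10-fold, although the second Pgd probe gave 0.60. Genes tied to ChREBP split, 5 up and 5 down of 13. Mlxipl itself fell 2.81-fold on its brightest probe while another gave 0.02, and Txnip and Arrdc4, arrestin-like proteins that respond to glucose, rose 2.56-fold and 2.31-fold. Of 13 glycogen genes 8 rose and 4 fell. Glycogen phosphorylase (Pygl) fell from 7.59 (7.50 to 7.71) to 6.29 (6.03 to 6.43), 2.50-fold, and the branching enzyme Gbe1 2.31-fold, while 3 targeting subunits of the phosphatase that activates glycogen synthase rose: Ppp1r3g by 2.71 with overlapping groups, Ppp1r3b by 1.03 and Ppp1r3c by 1.00.

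Glucose production genes were higher in fasted liver: 13 of 15 rose and 1 fell (median 0.87). The cytosolic aspartate aminotransferase Got1 had the largest rise of the list, from 5.41 (4.93 to 5.73) to 8.92 (8.38 to 9.22), 10.9-fold (adjusted p = 2.3e-12). The coactivator Ppargc1a rose 5.36-fold, serine dehydratase (Sds) 5.00-fold and the alanine aminotransferase Gpt 2.73-fold. The classical enzymes changed less: Pck1 rose 2.51-fold, from 8.07 (7.42 to 8.33) to 9.34 (9.21 to 9.47), G6pc 1.83-fold with overlapping groups, and Fbp1 by 0.17, a value that was -0.09 under quantile normalization and -0.08 in the authors' deposited series table. The mitochondrial Pck2 was the member that fell (-0.40). Among 12 genes of pyruvate entry to mitochondria 6 rose and 4 fell. The kinase Pdk4, which switches off pyruvate dehydrogenase, rose 3.81-fold with overlapping groups, and the opposing phosphatase subunit Pdp2 rose 2.66-fold.

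Fatty acid synthesis had the lowest median of the 54 lists described here, at -1.68: 13 of 17 genes fell and 2 rose. Fasn, the fatty acid synthase, lay between 8.96 and 9.83 with fructose and between 4.70 and 6.06 in fasting, with medians of 9.66 and 5.75, a 14.6-fold fall (adjusted p = 5.7e-13). The elongase Elovl6 fell 24.0-fold, from 6.34 (5.94 to 7.13) to 1.93 (0.77 to 2.23), and Thrsp, which promotes lipogenesis, 22.8-fold. The regulator Srebf1 fell 13.8-fold, acetyl-CoA carboxylase (Acaca) 8.99-fold, malic enzyme (Me1) 7.75-fold, the desaturase Scd1 3.21-fold and ATP citrate lyase (Acly) by 2.81 on the log2 scale. The exceptions were Elovl3, an elongase of very long chains, up by 1.60, and Elovl2, up by 0.27.

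Sterol synthesis and uptake followed, with 19 of 26 genes lower, 2 higher and a median of -1.24. Fdps, which makes farnesyl diphosphate, fell 9.56-fold and squalene epoxidase (Sqle) 9.45-fold. Fasted mouse 5 stood apart: its Sqle level of 4.09 lay inside the fructose range of 3.56 to 5.49, whereas the median of the fasted mice was 0.85. Insig2, which retains SREBP in the endoplasmic reticulum, went the other way, from 4.27 (3.98 to 4.74) to a median of 7.59, with no fasted mouse under 7.51, 9.90-fold (adjusted p = 6.5e-15), while its relative Insig1 fell by 2.22. Genes that assemble triglyceride were not lower as a group: 6 of 12 rose and 2 fell, led by the acyltransferase Gpat3 (9.44-fold) and by Mogat1 (3.48-fold).

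Of 17 lipid droplet and lipolysis genes 8 were higher and 4 lower. After Cidec the droplet coat genes Plin4 (4.91-fold), Plin5 (2.03 on the log2 scale) and Plin2 (1.36) rose, and so did the triglyceride lipase Pnpla2 (2.17). Markers of adipocytes gave 3 of 6 called higher and none lower, 50% called beside 45.3% of all genes. Their summed signal lay between 2.12 and 2.84 (log2) with fructose and between 2.43 and 3.33 in fasting. Adipoq was above background in no fructose-fed mouse and at least 2.24-fold higher in fasting, and the part of such cells in these values was not tested.

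All 21 genes of mitochondrial fatty acid oxidation rose (median 0.94), against 23.4% of all genes. Carnitine palmitoyltransferase (Cpt1a), which admits long-chain fatty acids, rose from 5.84 (5.74 to 5.92) to 7.50 (7.07 to 7.61), 2.99-fold (adjusted p = 2.2e-12), the carnitine transporter Slc22a5 4.12-fold and the thioesterase Acot2 4.26-fold. The groups overlapped for Acot2. With quantile normalization and in the authors' deposited series table the number called was 19 of the 21, all higher. Of 18 omega and peroxisomal oxidation genes 14 rose and none fell, with the bifunctional enzyme Ehhadh up 5.10-fold. Of 14 genes of PPARA and its partners 9 rose and none fell, among them Vnn1 (3.69-fold) and the lipase inhibitor Angptl4 (2.87-fold). Of 7 ketone body genes 3 rose and 2 fell (median 0.14): the thiolase Acat1 rose 1.93-fold with overlapping groups, and the exporter Slc16a6 fell 2.64-fold.

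Amino acid breakdown genes rose, with 25 of 26 genes higher, 1 lower and a median of 1.21. Apart from Got1 the largest rises of this list were in Agxt (6.47-fold), which converts glyoxylate and serine, Sds, the lysine enzyme Aass (4.94-fold), histidase (Hal, 4.04-fold) and ornithine aminotransferase (Oat, 3.80-fold). The tyrosine enzyme Tat rose 2.78-fold. The member that fell was Haao (-0.51). In the urea cycle 8 of 10 genes rose and none fell: Asl rose from 6.71 (6.33 to 7.16) to 8.57 (8.34 to 8.71), 3.60-fold, the ornithine carrier Slc25a15 3.69-fold, Cps1 2.49-fold and Arg1 2.29-fold. Periportal hepatocyte markers, of which Hal, Sds, Cps1, Arg1 and Pck1 are also in these lists, gave 9 of 10 higher and 1 lower, with a summed signal of 10.66 to 10.95 with fructose and 11.5 to 11.8 in fasting. Pericentral markers gave 3 higher and 4 lower of 10, with Cyp1a2 down 2.66-fold and Lgr5 2.84-fold and Oat, Cyp2e1 and Slc1a2 up, although the Slc1a2 call (0.21 or less on the log2 scale without fructose-fed mouse 3 or 6 or fasted mouse 2, 5 or 6) was lost in 5 of the 12 fits that left out 1 mouse and in 13 of the 29 other settings. The part of zonation in the amino acid values was not tested.

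Serine and one-carbon genes split by step. The synthesis branch fell: Psat1 from 0.75 (-0.79 to 1.19) to -3.30 (-3.79 to -2.73), 14.1-fold, Phgdh 6.99-fold and Psph by 1.28, along with mitochondrial Aldh1l2 (-1.91) and Mthfd2 (-1.80). The methionine and transsulfuration branch rose: Cth 6.10-fold, the methionine adenosyltransferase Mat1a 3.98-fold, and Bhmt, Gnmt and Cbs by 0.61 to 1.18 on the log2 scale. Genes of the amino acid stress response, among them Atf4, Cebpb and Cebpg besides targets of the factor ATF4, also split, 5 up and 5 down of 16. Trib3 rose 3.88-fold and Sesn2 1.96-fold, and Nupr1 fell 2.67-fold, although its other probe gave 0.43. Asparagine synthetase (Asns) gave 1.15 ± 0.43 (adjusted p = 0.035), and that call was lost in 8 of the 12 fits that left out 1 mouse, among them that without fasted mouse 2 (1.06, adjusted p = 0.068). Of 20 aminoacyl-tRNA synthetases 13 fell and 1 rose, each by 1.00 or less.

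Genes that fold proteins in the endoplasmic reticulum (ER) fell together: 21 of 23 were lower and none higher (median -0.83, against 21.9% of all genes lower). Sdf2l1, a chaperone cofactor, fell from 3.44 (2.83 to 4.14) to 0.53 (0.30 to 0.77), 7.62-fold (adjusted p = 6.2e-10). Derl3, of the ER degradation machinery, fell 8.15-fold, and the chaperone partners Manf and Creld2 4.99-fold and 4.27-fold. The master chaperone Hspa5 (BiP) fell from 7.71 (7.49 to 8.08) to 6.85 (6.54 to 6.96), 1.97-fold. The transducer Atf6 (0.04) and Herpud1 (0.11) were not called. Within slides 1, 2 and 3, with 2 mice of each group on a slide, the list medians were -1.03, -1.04 and -0.83. The translocon, signal peptidase and vesicle coat genes gave 20 lower and 1 higher of 24, with Sec61b down 2.93-fold and Sec23b 2.80-fold.

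The ER stress element, to which ATF6 binds with NF-Y, is CCAAT, then 9 bases, then CCACG. RefSeq promoter windows (GRCm38.p6, from 250 bases before to 50 after the start) were found for 19 of the 23 ER folding genes, and 9 of these (47.4%) held the element on either strand, against 23 of 13772 tested genes with a window (0.167%). Over all 32851 windows of the table the share was 0.119%. This element was 1 of several motifs searched in the same windows. Some of the others are given below, and the rest are not reported here. Of the 23 tested genes 13 were lower in fasted liver, 3 higher and 7 not called, beside 21.9% lower and 23.4% higher over all genes. The 13 were 9 ER folding genes, with Ero1b (-1.52), Acacb (-1.63), Alg12 (-0.53) and Hnrnpa3 (-0.68). Those 9 were already counted as lower in the ER folding list and are not separate evidence. The 3 higher genes were not on that list. A match is a description of the letters and not of a bound site. The windows of 4 members, chosen after the matches were seen, are shown 5′ to 3′ in the direction of the gene with the element in capitals, read on either strand; Hsp90b1 holds 2 matches.
Hspa5: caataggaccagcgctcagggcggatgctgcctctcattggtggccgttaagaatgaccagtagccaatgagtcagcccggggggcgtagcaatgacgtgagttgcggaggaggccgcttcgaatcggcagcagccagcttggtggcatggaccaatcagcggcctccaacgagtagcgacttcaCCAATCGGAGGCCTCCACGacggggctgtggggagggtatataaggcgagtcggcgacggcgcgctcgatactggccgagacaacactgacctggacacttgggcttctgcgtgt
Derl3: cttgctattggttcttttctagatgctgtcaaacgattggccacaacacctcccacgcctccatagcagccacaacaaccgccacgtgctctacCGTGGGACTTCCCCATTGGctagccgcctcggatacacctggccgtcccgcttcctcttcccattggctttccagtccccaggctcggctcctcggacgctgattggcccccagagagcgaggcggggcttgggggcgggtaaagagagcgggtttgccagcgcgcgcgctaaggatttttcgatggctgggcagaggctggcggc
Creld2: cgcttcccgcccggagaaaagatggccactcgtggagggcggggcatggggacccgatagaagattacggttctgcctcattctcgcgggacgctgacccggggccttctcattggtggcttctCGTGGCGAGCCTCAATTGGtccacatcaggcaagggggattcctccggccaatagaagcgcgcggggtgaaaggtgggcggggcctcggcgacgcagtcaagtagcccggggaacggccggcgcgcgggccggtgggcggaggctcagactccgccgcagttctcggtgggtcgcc
Hsp90b1: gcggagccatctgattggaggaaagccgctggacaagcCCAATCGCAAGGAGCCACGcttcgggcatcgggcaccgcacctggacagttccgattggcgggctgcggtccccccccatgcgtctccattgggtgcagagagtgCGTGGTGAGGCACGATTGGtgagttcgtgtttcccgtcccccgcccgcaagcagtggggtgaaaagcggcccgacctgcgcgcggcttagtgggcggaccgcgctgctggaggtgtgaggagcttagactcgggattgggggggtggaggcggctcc
The positions are chr2:34771840-34772139 (plus strand) for Hspa5, chr10:75893148-75893447 (plus) for Derl3, chr15:88819396-88819695 (plus) for Creld2 and chr10:86705395-86705694 (minus) for Hsp90b1. Hspa5 carries the element from 65 bases before the start, and in Creld2 and Derl3 it lies on the opposite strand. Hsp90b1 fell by 0.39 on the log2 scale. The shorter CCAAT box was held by 52.5% of genes lower by at least 2-fold, by 43.0% of those higher by at least 2-fold and by 42.2% of all tested genes with a window. The amino acid response element (TGATGCAA) was held by 121 tested genes, of which 33 were higher, 29 lower and 59 not called. The sterol element (TCACCCCAC) was held by 0.318% of genes lower by at least 2-fold, 0.974% of those higher and 0.697% of tested genes. It was held by 1 of 18 sterol synthesis and uptake genes with a window. The carbohydrate response element searched was held by 0 tested genes.

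Ribosomal protein genes showed no common change, with 3 of 20 higher, 2 lower and a median of -0.01. This count depended on the scaling: of the 20, 16 were lower with quantile normalization and 17 in the authors' deposited series table, with none higher. Genes that build ribosomes gave 13 lower and 3 higher of 20 (median -0.32), with the nucleolar Nolc1 and Nop56 each down 1.55-fold, while the polymerase I factor Ubtf rose 2.03-fold. Protein breakdown genes went up. Of 20 proteasome subunits 17 rose and none fell, all by less than 2-fold, with Psmd4 (1.60-fold) and Psmc1 (1.58-fold) highest. Of 20 autophagy and lysosome genes 12 rose and 3 fell, with cathepsin L (Ctsl) up from 7.22 (7.12 to 7.37) to 8.77 (8.36 to 9.15), 2.86-fold, Gabarapl1 2.21-fold and Map1lc3b 2.01-fold, and the kinase Ulk2 down 1.96-fold.

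**Figure D3:**
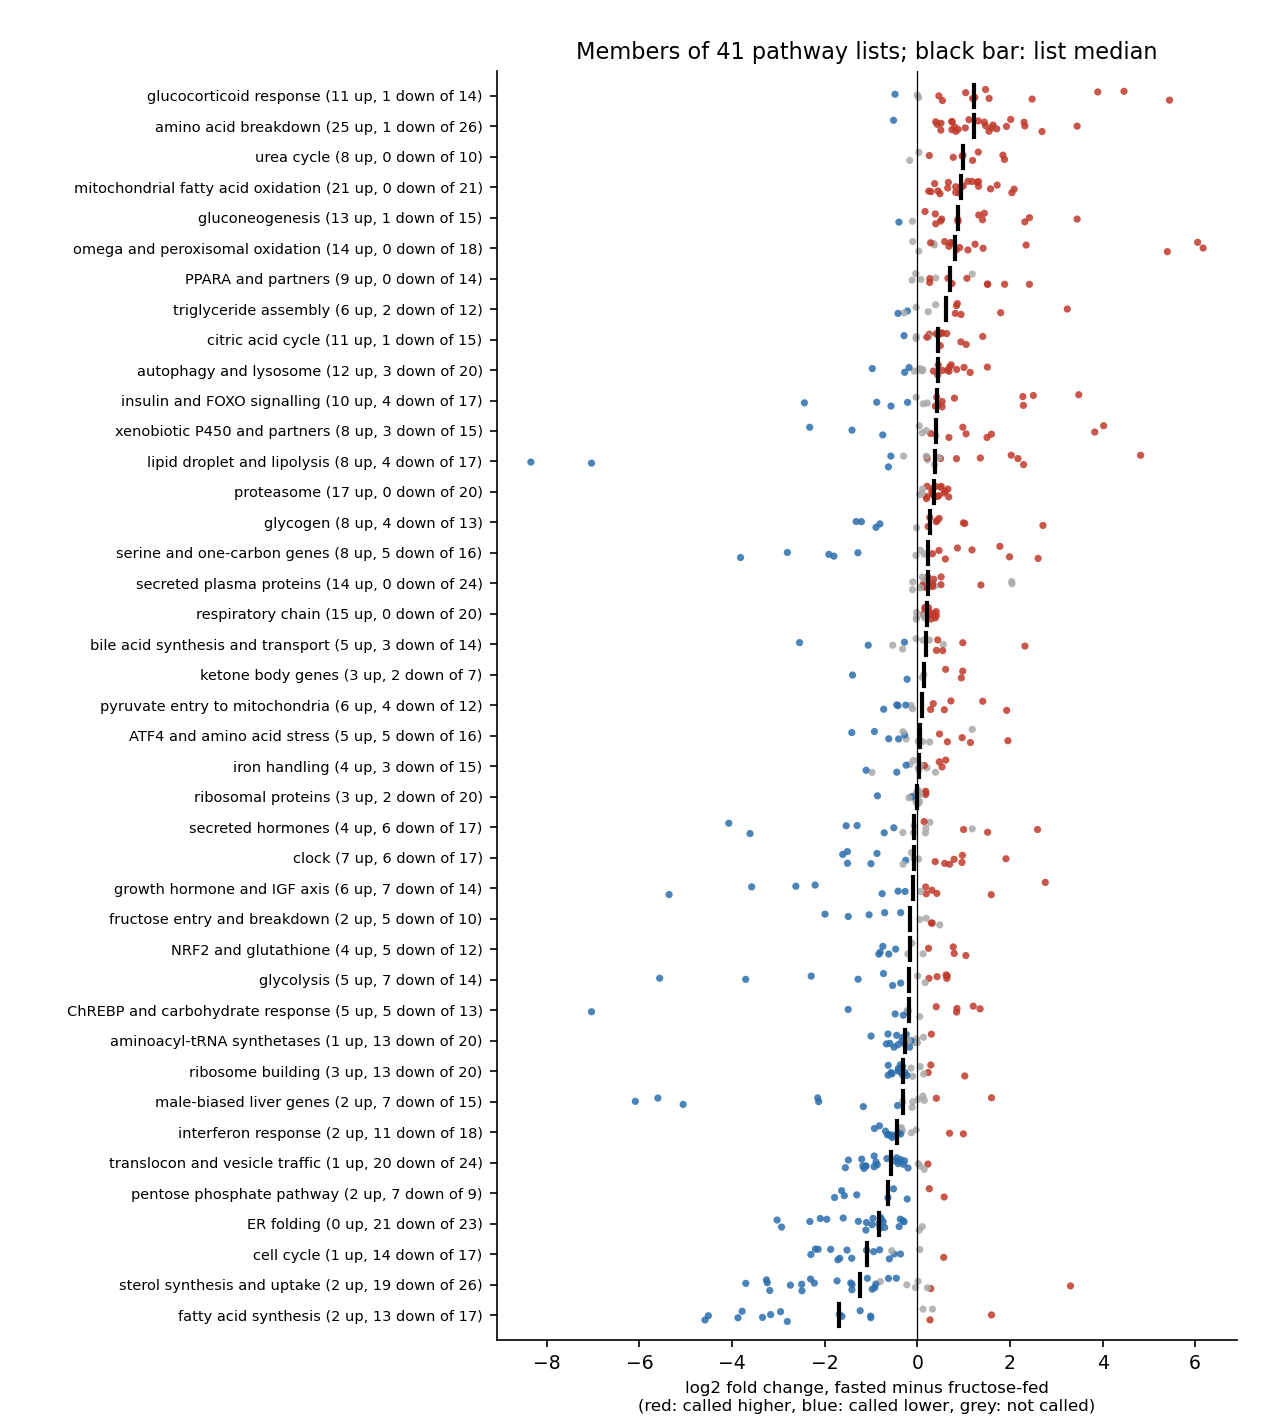
Log2 fold change (fasted minus fructose-fed, x axis) of each measured member of 41 pathway lists (y axis, with the number called up and down), red for called higher, blue for called lower and grey for not called, and a black bar at the list median. Glucocorticoid response and amino acid breakdown have medians of 1.22 and 1.21 at the top, and fatty acid synthesis (-1.68) and sterol synthesis (-1.24) lie at the bottom.

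Hormone-responsive genes were among the large changes. Of 14 glucocorticoid response genes 11 rose and 1 fell (median 1.22). Besides the metallothioneins these included Lcn2, given below with the acute phase genes, and Cdkn1a, a cell cycle inhibitor. Cdkn1a rose from 0.22 (-0.39 to 1.80) to 4.34 (3.80 to 4.88), 14.9-fold, and Fkbp5, Klf9, Zbtb16 and Sgk1 rose by 1.04 to 1.55 on the log2 scale. The member that fell was the receptor Nr3c1 (-0.48). Of 17 insulin and FOXO genes 10 rose and 4 fell. Igfbp1, which insulin represses, rose from 4.83 (4.12 to 6.40) to 8.52 (7.64 to 9.82), 11.2-fold, the insulin receptor substrate Irs2 4.89-fold and Gadd45g 5.68-fold, whereas Gadd45a fell 5.42-fold.

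The growth hormone and IGF axis gave 6 higher and 7 lower of 14. Cish, which growth hormone induces through STAT5, fell 6.16-fold and Socs2 by 2.21, and Onecut1 fell from 4.93 (3.30 to 5.54) to 0.77 (0.43 to 2.78), 11.9-fold. Cux2, a factor known from female liver, rose 6.79-fold with 3 of 6 fructose arrays above background, and Igf1 gave 0.18, a value that was -0.02 under quantile normalization and in the authors' deposited series table and whose call was lost without fructose-fed mouse 3, 4 or 6 or fasted mouse 2, 4 or 5 (0.16 to 0.17). Of 15 male-biased liver genes 7 fell and 2 rose. Serpina4-ps1, Hsd3b5 and Serpina9 fell by more than 5 on the log2 scale, Nudt7 by 2.15 and Slco1a1 by 2.13, while the major urinary protein genes Mup3, Mup20 and Mup21 (0.02 to 0.15) were not called, with Mup3 at -0.21 under quantile normalization and Mup21 called without fructose-fed mouse 4 or fasted mouse 4; these copies are near-identical and cannot be told apart with certainty. Among 17 secreted hormone genes 6 fell and 4 rose. Angptl8, an insulin-induced lipase regulator, fell from 6.81 (6.12 to 8.54) to 3.04 (2.54 to 3.54), 16.8-fold, and the activin subunits separated: Inhba fell 12.2-fold and Inhbc 2.90-fold, and Inhbb rose 6.04-fold.

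At ZT16 the clock genes differed in both directions, with 7 of 17 higher and 6 lower. The activator Arntl rose 3.77-fold, from -0.31 (-0.91 to 0.37) to 1.52 (1.26 to 2.13), and Clock by 0.96, while Bhlhe40 fell 3.05-fold, Dbp 2.85-fold, Per3 2.84-fold and Nr1d1 by 0.87. In bile acid synthesis the rate-limiting Cyp7a1 fell 5.83-fold and the 12-alpha-hydroxylase Cyp8b1 rose 5.01-fold. The bile salt pump Abcb11 fell 2.08-fold and the phospholipid exporter Abcb4 rose 1.97-fold. Of 15 xenobiotic genes 8 rose and 3 fell. Cyp2b9 and Cyp2b10 rose 16.3-fold and 14.2-fold, their electron donor Por 2.84-fold, and Cyp2c55 fell 5.01-fold.

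Mitochondrial genes outside fat oxidation rose modestly. Of 15 citric acid cycle genes 11 rose and 1 fell, led by fumarase (Fh1, 2.66-fold) and Dlst (2.08-fold). Of 20 respiratory chain genes 15 rose and none fell, at most by 0.41; with quantile normalization 4 rose and 4 fell, and within slide 2, which holds fasted mouse 2, none was called. Cell cycle genes were lower, 14 of 17 with 1 higher (median -1.10): Ccnd1 fell 4.92-fold, Ccne1 4.60-fold and Mcm5 4.41-fold. Of 18 interferon-induced genes 11 were lower and 2 higher, with medians of 0.00, -0.81 and -0.64 within slides 1, 2 and 3. Stat2 fell 1.76-fold, and Rsad2 rose 1.99-fold. In iron handling 4 of 15 genes rose and 3 fell, 46.7% called beside 45.3% of all genes, with the transferrin receptor Tfrc down 2.15-fold. Of 12 NRF2 and glutathione genes 4 rose and 5 fell, with Nqo1 up 2.07-fold and Gstm1 down 1.78-fold.

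The fed groups on water and glucose were set beside the fructose group. A difference between fructose and water is not by itself particular to fructose, and levels with glucose are given for some genes. Between fructose-fed and water-fed mice 211 genes (0.88%) differed, 120 higher and 91 lower with fructose; this count was 72, 72 and 70 without fructose-fed mouse 1, 3 or 6 in turn, 413 without fructose-fed mouse 4 and 446 without fasted mouse 2, which enters the shared estimate of spread. Processing moved it as far: it was 75 with median scaling, 545 with normexp, 367 in the authors' deposited series table, 79 with no filter on dim probes, 379 with array weights, 19 in the test against a fold of 1.2 and 0 within each slide. Between fructose-fed and glucose-fed mice limma called 0 genes (0%), with 1869 at an unadjusted p under 0.05, and 0 to 6 genes under the other settings. The main contrast shares its fructose mice with these comparisons, so their values are given side by side.

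The liver hormone gene Fgf21 was higher with fructose than on water, and its fructose and fasted levels overlapped. It lay between -3.87 and -2.07 on water, between -0.43 and 1.75 (median 0.40) with fructose and between -0.10 and 2.76 (median 2.12) in fasting. With glucose it lay between 0.41 and 2.56. It was 10.9-fold higher with fructose than on water (adjusted p = 0.0015), and fasted minus fructose gave 1.19 ± 0.50 (adjusted p = 0.059), with overlapping groups. That difference passed the threshold in 9 of the 29 other settings. These were the fits without fasted mouse 2, which had the lowest fasted level (1.56, adjusted p = 0.0091), and without fructose-fed mouse 3 (1.36) or 6 (1.42), normexp (1.09), the authors' deposited series table (1.12), slide 3 alone (2.23), array weights (1.45) and both fits with the replicate number as a block (1.19, adjusted p = 0.019, and with the slide added 0.029). Fut1, a fucosyltransferase gene, gave 0.10 ± 0.37 between fasted and fructose-fed mice (adjusted p = 0.85) and was above background in no water-fed mouse; with fructose it was at least 4.22-fold higher than on water. With glucose Fut1 lay between -2.56 and -1.30. For these genes the levels with glucose, with fructose and in fasting all lay above the level on water.

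For other genes the mean levels with fructose and in fasting lay on opposite sides of the mean on water, though not every such difference is given with a test. Psat1 was 6.58-fold higher with fructose than on water (adjusted p = 7.1e-05), and in fasting it was 2.14-fold lower than on water (adjusted p = 0.0059). Phgdh was 4.36-fold and the calcium-binding Cabp2 4.67-fold higher with fructose than on water. With glucose Psat1 lay between 0.64 and 2.19 and Phgdh between -0.30 and 2.13, against -0.79 to 1.19 and -1.80 to 0.41 with fructose. Me1 was 2.69-fold higher with fructose than on water and fell by 1.53 from water to fasting. Gpi1, Acaca, Pgd, Tkt and Khk were 1.92-fold, 1.67-fold, 1.63-fold, 1.52-fold and 1.37-fold higher with fructose than on water. Nupr1 was 2.13-fold higher with fructose, and its difference between fasting and water, -0.32, was not called (adjusted p = 0.24). Agxt was 3.17-fold lower with fructose, at 5.21 (4.30 to 6.37), than on water, at 6.85 (6.49 to 7.02). In fasting it was at 7.92 (7.46 to 8.06), and with glucose it lay between 5.23 and 6.08. Gpt had the same order from fructose through water to fasting, at 1.39-fold between fructose and water.

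In a further set the mean level with fructose lay between those on water and in fasting. Hspa5 was 1.66-fold lower with fructose than on water and Sdf2l1 1.96-fold lower, and 4 of 23 ER folding genes were called lower with fructose than on water, with none higher. The intestinal-type apolipoprotein Apoa4 was 2.60-fold higher with fructose than on water and a further 2.59-fold higher in fasting than with fructose, where the groups overlapped. Several of the leading fasting genes were not called between fructose and water: Thrsp gave -0.01, Cyp4a10 -0.48, Cidec 0.17 and Hsd3b5 -0.12. Pnpla3 (1.56, adjusted p = 0.15) and Elovl6 (0.89, adjusted p = 0.098) also missed the threshold. Against glucose, fructose gave -0.03 for Khk (95% interval -0.18 to 0.13) and 0.13 for Me1 (-0.28 to 0.53).

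**Figure D4:**
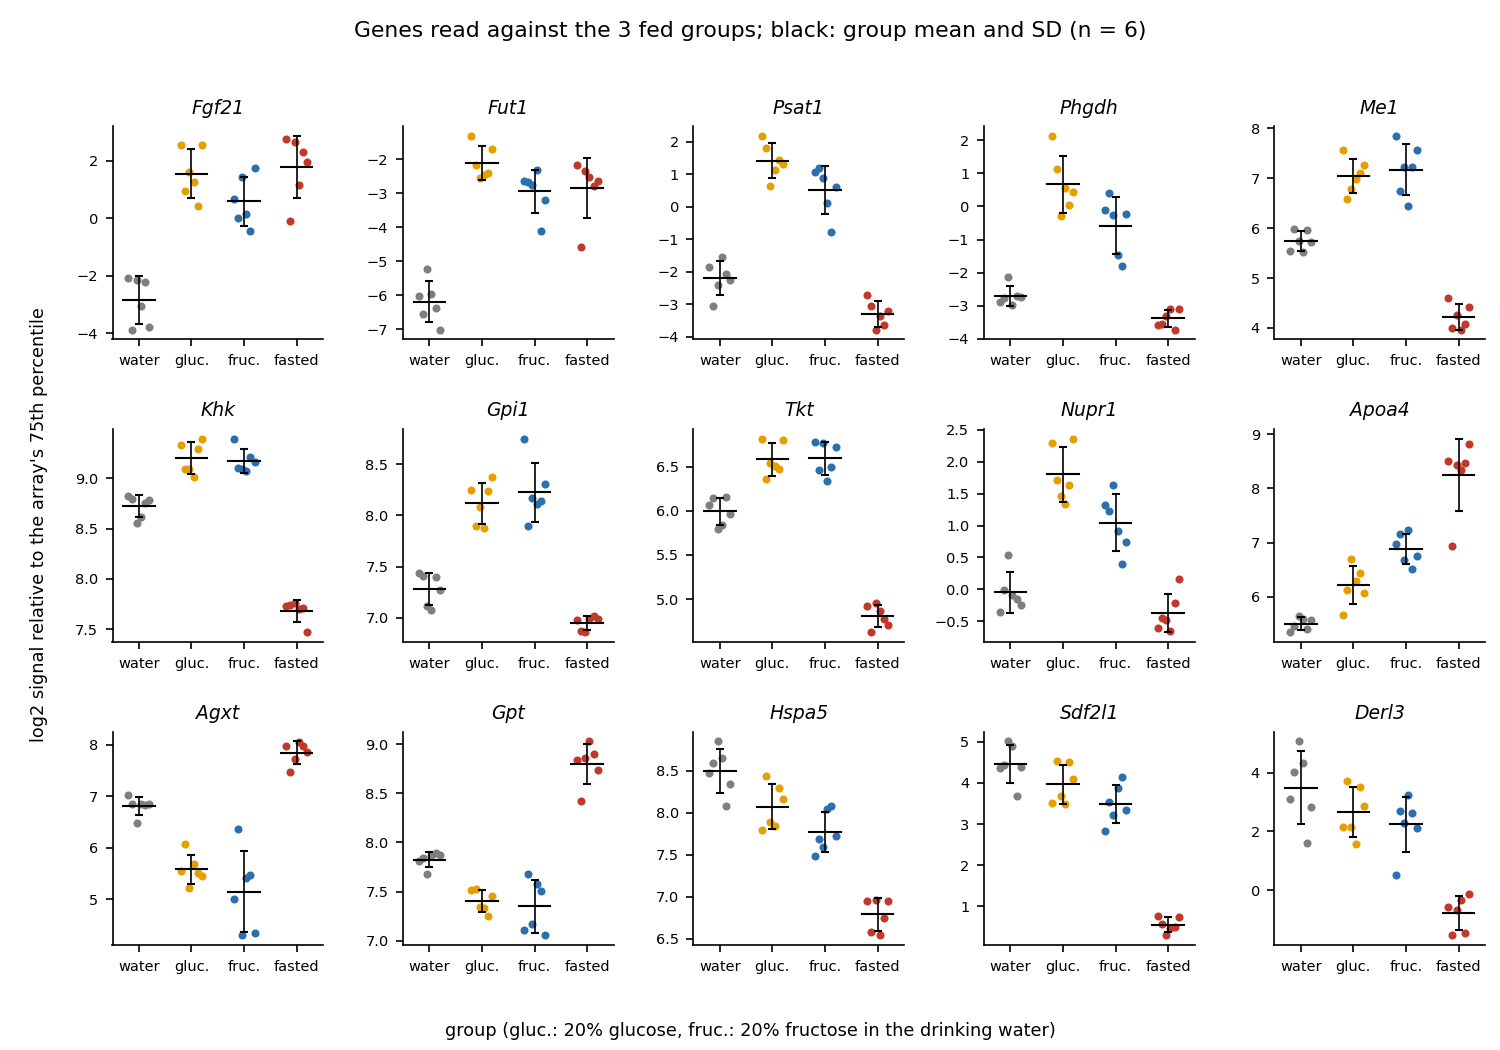
Level of 15 genes in each mouse (y axis, log2 signal relative to the array's 75th percentile) in the 4 groups (x axis), with the group mean and SD (n = 6) in black. Fgf21 and Fut1 are low on water and overlap between fructose and fasting, Psat1 to Nupr1 are lower in fasting than with fructose, Agxt and Gpt are higher, and Hspa5 and Sdf2l1 step down from water through fructose to fasting.

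Acute phase and neutrophil genes varied widely between fasted mice. Saa1, an acute phase protein gene, lay between 4.24 and 6.79 with fructose and between 4.56 and 10.4 in fasting, and was not called, except without fasted mouse 3 (2.64, adjusted p = 0.034) or 6 (2.62, adjusted p = 0.035), the lowest of the fasted mice. Its level was 8.56, 10.4, 4.56, 7.57, 9.55 and 4.63 in fasted mice 1 to 6, so 4 of them lay above every fructose-fed mouse and 2 within the fructose range. The neutrophil markers S100a8, Retnlg, Camp and Mmp8 were called higher, 4 of 7, but without fasted mouse 2 the list had 1 gene higher and 1 lower, and S100a8 gave 1.40 (adjusted p = 0.12). Of the 12 fits that left out 1 mouse, S100a8 lost its call in 6, Mmp8 in 8 and Camp in 2. Fasted mice 2 and 4 had the highest S100a8 levels, 2.10 and 1.78, and mouse 6 the lowest, -4.67. The summed neutrophil signal lay between 6.80 and 7.14 with fructose and between 7.003 and 7.444 in fasting. Lcn2, counted above as a glucocorticoid response gene, was highest in fasted mouse 2 (5.86). Its 5.57-fold rise, with overlapping groups, is given beside these values without a test of their relation.

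**Figure D5:**
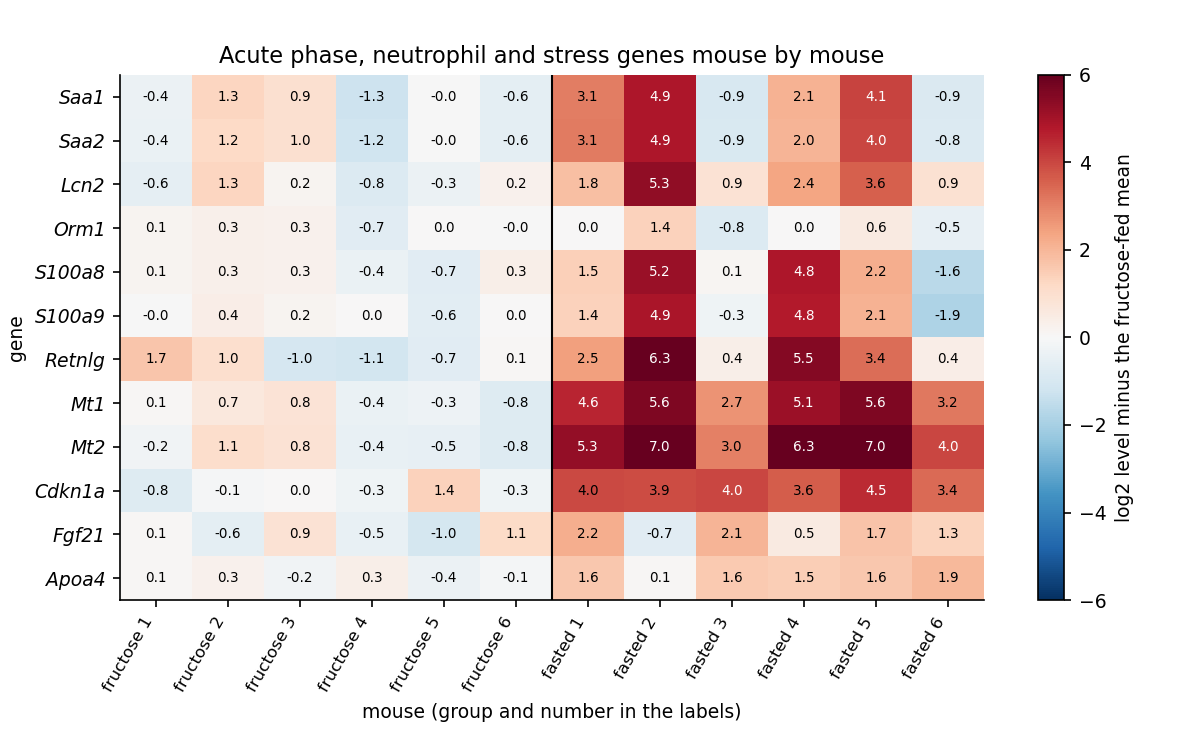
Log2 level minus the mean of the 6 fructose-fed mice (colour and printed value) for 12 genes (rows) in each mouse of the 2 groups (columns); the genes were chosen after their values were seen. Saa1, Saa2 and S100a8 are above every fructose-fed mouse in fasted mice 1, 2, 4 and 5 and near or below the fructose mean in fasted mice 3 and 6. Mt1, Mt2 and Cdkn1a are raised in all 6 fasted mice. Among these mice Mt1 (2.72 and 3.15) and Mt2 (3.05 and 4.02) are also lowest in mice 3 and 6.

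Markers of other cell types were mixed. Over all genes 45.3% were called in either direction. The share was 87.5% for hepatocyte, 71.4% for cholangiocyte, 70% for endothelial and 54.5% for stellate cell markers. It was 40% for skeletal muscle, 36.4% for Kupffer cell, 25% for lymphocyte and 20% for both red cell and acinar markers. Of 8 hepatocyte markers 7 were higher and none lower, with a summed signal of 12.1 to 12.2 with fructose and 12.3 to 12.5 in fasting, and all were above background. Tat and Cps1 of this list are also given above. In the 29 other settings 1 to 7 of the 8 were called higher and at most 1 lower, with medians of 0.13 to 0.39. Kupffer cell markers gave 4 of 11 higher and none lower, led by the scavenger receptor Marco (2.79-fold), and 2 without fasted mouse 2. Stellate cell markers gave 5 of 11 lower and 1 higher, with Col3a1 down 3.81-fold and the retinol enzyme Lrat 2.39-fold, while their summed signal overlapped (6.52 to 6.84 and 6.67 to 6.91). Cholangiocyte markers gave 4 of 7 lower and 1 higher, with a summed signal of 3.07 to 3.90 with fructose and 2.13 to 3.37 in fasting. Pancreatic acinar markers gave 1 of 5 lower and none higher (4.54 to 5.38 and 3.85 to 4.58), and red cell markers 1 of 5 lower and none higher (8.28 to 9.22 and 8.75 to 9.86). Their part in the results was not tested. Endothelial markers gave 5 of 10 lower and 2 higher, and lymphocyte markers 1 in each direction of 8. Skeletal muscle markers, to be read beside Myom3, gave 2 of 5 lower and none higher.

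Some of the genes that changed by at least 2-fold were neighbours. Of 1413 protein-coding genes called at 2-fold or more and placed on the assembly, 64 lay in runs of 3 or more adjacent protein-coding genes changed the same way. The longest run was 7 kallikrein genes on chromosome 7, Klk1b26 to Klk1, all lower with a median of -1.41; these copies are similar in sequence and may share signal. Slc22a27, Slc22a28, Slc22a29 and Slc22a30, organic anion transporter genes on chromosome 19, were lower (median -2.07). Cyp4a14, Cyp4a10 and Cyp4a31 lay side by side on chromosome 4. Neighbours of different families also formed runs, such as Rhbdd2, Por, Tmem120a and Styxl1, higher on chromosome 5 (median 1.59), and Fdps, Pklr and Hcn3, lower on chromosome 3 (median -3.71).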

How the data were processed

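Liver RNA of 24 mice was measured on 1-colour Agilent arrays, 1 per mouse. The deposited scanner files hold spot intensity values from Agilent Feature Extraction 10.10.1.1, per the submitters' processing notes, background-subtracted by that software per the file headers. The authors' deposited series table holds log2 values; the submitters' processing notes name limma, and the steps are not otherwise given in the sources used here. Control spots and outlier spots were left out, log2 intensities were reduced by each array's 75th percentile, and spots of a probe were averaged. Of 56605 probes, 36230 were kept, and the brightest kept probe stood for a gene. To be kept, a probe needed the scanner software's well-above-background call in 6 or more mice out of 24, counted without regard to group. Gene names came from the RefSeq table, and 6472 genes without an entry kept the array's name.

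All 4 groups were fitted together in limma 3.58.1 (R 4.3.3; lmFit, eBayes), with Benjamini-Hochberg adjustment over 23966 genes; the fit was tested on simulated data. Every adjusted p is from this fit. P-values measure the spread between the mice given. Settings varied were the scaling, background correction, probe filter, probe summary, slide and replicate blocks, array weights and each array left out.

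Genes named were the 15 largest rises and 15 largest falls, taken from called genes with no overlap between groups, up to 4 members of each list, a panel of sugar and fasting genes, and the 5 largest differences between fructose and water. A further 54 genes, such as Saa1, Saa2, Orm1, Hsp90b1 and the neighbours in runs, fall outside this rule and were chosen after their values were seen. The members and lists were chosen with earlier results of these data known. Values of some genes that the rule names are not reported here.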

Additional observations from a re-analysis of the deposited data

Results flagged for a closer look

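Of 418 groups of 6 values, from the 209 genes given in the text, 42 (10.05%) held a mouse whose distance from its nearest neighbour passed Dixon's 95% critical value. Chance alone gives about 5.0% of such groups, 1 in 20, where groups are unselected, independent and normally distributed. These genes were partly chosen by their values and come from the same mice, so the comparison of the shares is not a test. The values are log2 levels relative to the array's 75th percentile. Fasted mouse 2 was the distant animal in 16 groups, more often than any other of the 12 mice. It lay apart in Cidec (3.38), Elovl6 (0.77), Fut1 (-4.59), Fasn (4.70), Gpat3 (2.59), Acat1 (4.18), Trib3 (3.32), Sesn2 (1.84), Cyp8b1 (3.58), Apoa4 (6.94), Dlst (6.27), Oat (8.12), Acaca (2.78), Bhmt (9.39), Hsp90b1 (6.81) and Tmem120a (5.21).

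Among the other fasted mice, mouse 4 lay apart in Inhbc (1.59), Cyp1a2 (2.18) and Mthfd2 (-3.99). Fasted mouse 5 lay apart in Fdps (5.16), Sqle (4.09), Slc25a15 (2.99) and Fkbp5 (6.08), and fasted mouse 6 in Khk (7.47), Cyp2c55 (-3.25) and Slco1a1 (3.61). The Fdps and Sqle values of mouse 5 belong to adjacent parts of sterol synthesis.

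In the fructose group, mouse 4 lay apart in Cyp4a10 (4.39), Cyp4a31 (6.09), Per3 (2.02), Cyp2c55 (-1.66), Orm1 (7.56) and Plin2 (5.40). Mouse 3 lay apart in Adra2a (-5.84), Slc22a5 (2.61) and Cyp8b1 (0.73), mouse 2 in Pdk4 (1.33) and Hnrnpa3 (5.20), mouse 5 in Ppp1r3g (-2.31), Adipoq (-7.33) and Aldh1l2 (-4.95), and mouse 6 in Txnip (4.91) and Cbs (6.71). No test of why these mice differed was made.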

How the results depend on the processing

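The counts of genes higher and lower in fasted liver, 5598 and 5247, were 2386 and 2127 within slide 1, 2130 and 2356 within slide 2 and 2474 and 2087 within slide 3, where fewer mice entered each fit. A test against a fold of 1.2 gave 2489 and 2340. The counts at 2-fold or more, 1044 and 950, were 601 and 441 with normexp background correction, which added 50 to each corrected intensity. In the authors' deposited series table these counts were 658 and 560. The cause of either change was not tested. With 1 mouse left out the counts ranged from 5194 to 5705 higher and 4885 to 5170 lower, and at 2-fold or more from 1018 to 1108 and 904 to 993. Fbp1 reversed to -0.086 with quantile normalization and -0.076 in the series table. Igf1 reversed to -0.023 and -0.025 and Mup3 to -0.21 and -0.23 under the same settings, and with the median of probes Mup21 gave -0.25 and Pip5k1a -0.30. Of 198 called genes given in the text, 192 stayed past the threshold whichever single mouse was dropped and 198 had the same sign within all slides; 126 were called in every one of the 29 settings that measured them. The median of all genes stayed between 0.003 and 0.07.

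Deviations of same-numbered mice correlated at 0.05 on average (-0.06 to 0.12, 1 of 6 above 0.1), and those of differently numbered mice at -0.01. Of 12 arrays, 3 correlated best with their own number. Correlations this weak in 6 pairs cannot decide whether the replicate numbers pair the mice. With the number as a replicate block the counts were 5604 and 5260, and with the slide added 5603 and 5230. Levels near background, such as those of Tg, Cend1 and Adra2a in fed mice, have only a bound, and 6 arrays per group limit the precision of small differences.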
